A study of Arabidopsis thaliana with 6 samples.

Results

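The 10 genes described here make up the core of the gibberellin pathway in Arabidopsis thaliana, from the last steps of hormone synthesis to perception. They were chosen by gene ID, out of 23022 genes listed in at least 1 of 6 mRNA libraries, and all 10 were found. GA20ox1 (AT4G25420), GA20ox2 (AT5G51810) and GA3ox1 (AT1G15550) are synthesis genes, GID1A (AT3G05120), GID1B (AT3G63010) and GID1C (AT5G27320) are receptor genes, and RGA (AT2G01570), GAI (AT1G14920), RGL1 (AT1G66350) and RGL2 (AT3G03450) are DELLA repressor genes. The libraries were made from polyA RNA of whole seedlings, 3 of the mutant 17ab and 3 of wild type (WT), grown on upright plates of MS medium for 10 days and picked for like size, with no stress treatment named. The labels give neither the genes mutated in 17ab nor the ecotype, and the series title places the study in the unfolded protein response, the adjustment of a cell to unfolded protein in the endoplasmic reticulum. The question addressed here is whether the transcripts of gibberellin synthesis and perception differed between 17ab and WT seedlings.

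Gibberellins are diterpenoid hormones that promote germination, stem elongation and leaf growth. GA 20-oxidases and GA 3-oxidases carry out the final steps to the bioactive hormone. The bioactive hormone binds the soluble receptor GID1, the complex then binds a DELLA protein, and the DELLA protein is marked for degradation by an F-box protein, which releases growth genes from repression. Bioactive gibberellin is also known to lower the transcripts of its own synthesis and receptor genes, a feedback that depends on the DELLA proteins.

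Transcripts of 3 stress sensors of the endoplasmic reticulum were set beside the genotype labels. The labels name no mutated gene, and the 3 were chosen with earlier results of these data known. Their values therefore show how the libraries separate by label and cannot check the labels themselves. bZIP17, a membrane-anchored transcription factor, had 2.08, 1.90 and 2.08 FPKM (counts scaled by gene length and library total) in the 17ab libraries, against 10.66, 11.25 and 10.24 FPKM in the WT libraries. IRE1A, a kinase and ribonuclease of the same response, had 3.73, 3.99 and 4.06 FPKM in 17ab, against 12.60, 12.30 and 12.11 FPKM in WT. Its paralog IRE1B had 5.27, 5.06 and 4.52 FPKM in 17ab, against 8.24, 7.81 and 8.22 FPKM in WT. All 3 transcripts fell, with every 17ab library below every WT library and edgeR adjusted p-values of 1.221e-06 for bZIP17, 2.982e-06 for IRE1A and 0.001345 for IRE1B. Library totals were 6261789 to 6292461 counts in 17ab and 5968854 to 6198230 counts in WT, and no pair of libraries was identical. Nothing in the labels ties a library to a plate or culture of its own, so the p-values rest on a spread between samples that may be technical.

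The gene families hold close paralogs, so the sequences that reads must tell apart are shown. Coding DNA was read from the RefSeq annotation of TAIR10.1, and the capitals mark the codons of a motif. In the 4 DELLA genes the capitals are the 15 bases that code for the motif after which the family is named, the region bound by the receptor. The search allowed the last residues of the motif to vary, and it found no match in RGL3, the remaining DELLA gene.
RGA (chromosome 2): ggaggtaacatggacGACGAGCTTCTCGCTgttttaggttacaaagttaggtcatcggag
GAI (chromosome 1): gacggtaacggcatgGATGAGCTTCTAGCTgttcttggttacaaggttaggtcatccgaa
RGL1 (chromosome 1): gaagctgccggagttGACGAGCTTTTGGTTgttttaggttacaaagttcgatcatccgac
RGL2 (chromosome 3): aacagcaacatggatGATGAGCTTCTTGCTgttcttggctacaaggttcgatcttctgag
In the 3 receptor genes the capitals are the 9 bases that code for the HGG motif, which GID1 shares with the hormone-sensitive lipase family.
GID1A (chromosome 3): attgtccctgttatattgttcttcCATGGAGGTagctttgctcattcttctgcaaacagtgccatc
GID1B (chromosome 3): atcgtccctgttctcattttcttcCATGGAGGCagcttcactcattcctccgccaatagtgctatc
GID1C (chromosome 5): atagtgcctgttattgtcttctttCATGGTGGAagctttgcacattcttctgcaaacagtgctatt

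Across their whole coding sequences, GID1A and GID1C were identical at 83.8% of aligned bases, with a longest identical run of 35 bases. GID1B stood further apart, at 70.5% identity with GID1A and 71.4% with GID1C. Among the DELLA genes RGA and GAI were the closest pair, at 82.4%. All 60 expected counts of the 10 genes were whole numbers (tolerance 1e-06), so none of their values held a visible fraction of a shared read. None of the 10 genes overlaps another gene on either strand in the TAIR10.1 annotation.

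Of the 10 genes 9 passed the filter on low counts and were tested, and 1 of the 9 passed the test: the receptor gene GID1B rose in 17ab. None of the 9 fell by edgeR's quasi-likelihood test over all genes, with 2 lower and 2 higher at an unadjusted p under 0.05, and DESeq2 called none in either direction, with 1 higher and 0 lower at an unadjusted p under 0.05. Over all 17854 genes tested, 14.1% passed in either direction, 7.57% as risen and 6.51% as fallen, so 1 call among 9 tested members lies near the background. The median log2 fold change of the 9 was 0.13, against -0.002 over all genes tested. Of all calls 53.8% were risen, against 44.2% with an offset that removed each library's trend on gene length and 43.5% with one on GC content and length, the second added after seeing the data. In FPKM 5 of the 10 members had groups that did not overlap, against 31.1% of all genes tested. In 3 of them 17ab lay above WT, as in 18.2% of all genes tested, and in 2 it lay below, as in 12.9%. In whole seedlings, a change in the share of cells that express a gene and a change in its RNA per cell cannot be told apart.

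**Figure D1:**
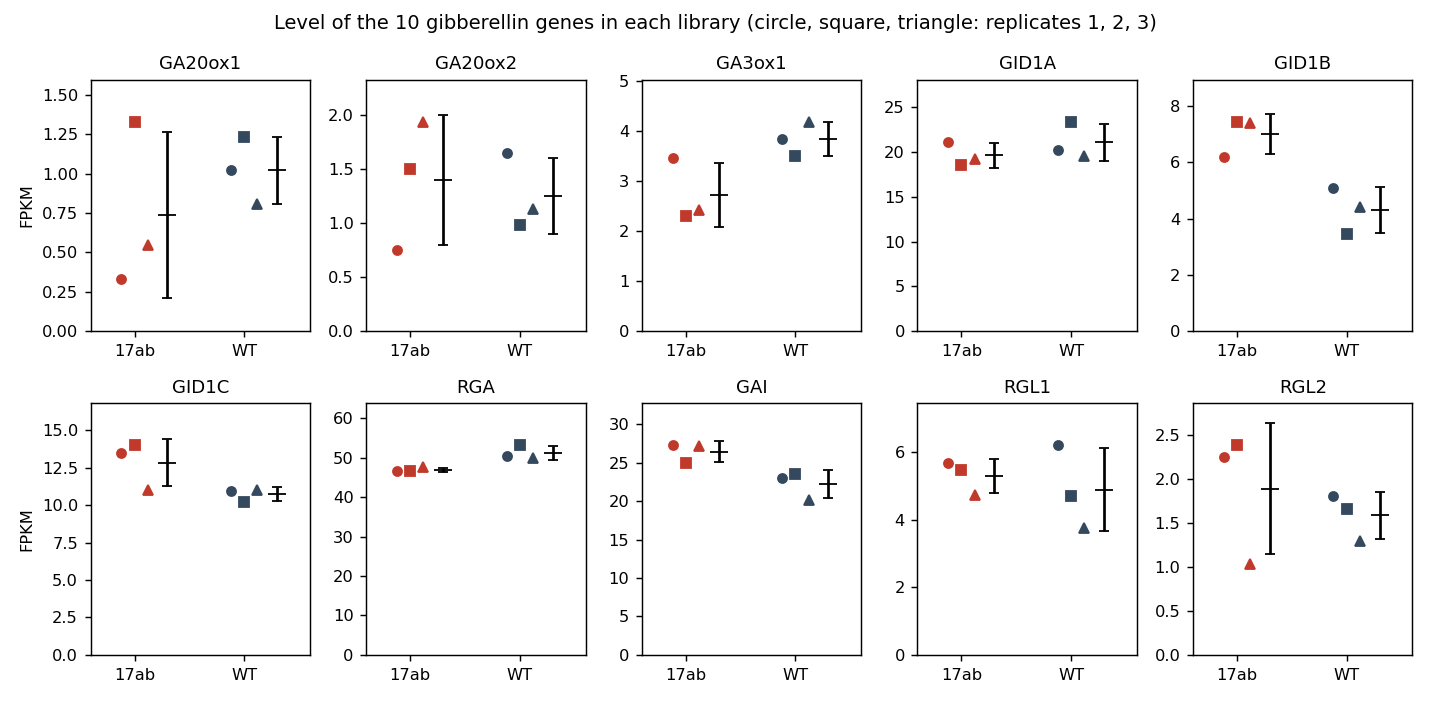
FPKM (vertical axes, each starting at 0) of the 10 members in the 3 libraries of 17ab (red, left) and the 3 of WT (dark, right), with the mean and SD of each group beside the points. GID1B stands at 6.20 to 7.44 FPKM in 17ab and 3.46 to 5.07 FPKM in WT, while GA20ox1 and GA20ox2 scatter widely at levels near 1 FPKM.

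The levels of the 10 transcripts spanned a wide range and kept much the same order in both genotypes. On the FPKM scale RGA was the most abundant, at 46.9 in 17ab and 51.1 in WT on average, and GA20ox1 the least, at 0.737 in 17ab and 1.02 in WT. In 17ab the order after RGA was GAI, GID1A, GID1C, GID1B and RGL1, and the ranges of neighbours in this order did not overlap down to GA3ox1, which overlapped RGL2. In WT the ranges of GAI and GID1A overlapped, as did those of RGL1 and GID1B and those of GID1B and GA3ox1. Of RGL2, GA20ox2 and GA20ox1, the last 3 in both genotypes, neighbours in the order overlapped in both, while RGL2 and GA20ox1 overlapped in 17ab and not in WT. GID1B stood above RGL1 in 17ab, without overlap, and below it by mean level in WT, where the ranges overlapped.

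Among the synthesis genes no transcript passed the edgeR test, with 1 lower and 0 higher at an unadjusted p under 0.05, and none did by DESeq2 at either level. GA3ox1, whose enzyme makes the bioactive hormone in vegetative tissue, had 3.45, 2.30 and 2.41 FPKM in 17ab, against 3.84, 3.50 and 4.18 FPKM in WT. Every 17ab library lay below every WT library, by a narrow margin between 17ab replicate 1 and WT replicate 2. Its log2 fold change was -0.52 ± 0.24 (SE, n = 3 each), with a 95% interval from -1.04 to -0.004 and an edgeR adjusted p of 0.1783. The adjusted p lay between 0.1052 and 0.4784 in the 18 alternative settings.

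GA20ox2, one of the 20-oxidases that supply precursors to GA3ox1, had 0.75, 1.5 and 1.94 FPKM in 17ab, against 1.65, 0.98 and 1.13 FPKM in WT. The groups overlapped, and the difference of 0.13 ± 0.41 on the log2 scale (edgeR adjusted p = 0.8831) has a 95% interval from -0.75 to 1.01, whose upper end is a 2.02-fold rise. GA20ox1, its paralog, known for its effect on stem elongation, was counted with 3, 12 and 5 reads in 17ab and with 9, 11 and 7 reads in WT. It did not pass the filter on low counts. The ratio of its summed counts per library total, 17ab over WT, was 0.72, with an exact 95% interval of 0.383 to 1.33 that covers counting error only. The edgeR fit without the filter, which includes the spread between libraries, gave a 0.708-fold level with a wider 95% interval of 0.32 to 1.57 (adjusted p = 0.6268). Both intervals include no change, and how small a change could be detected at this depth was not tested.

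Of the receptor genes 1 of 3 passed the test, against 14.1% of all genes tested. GID1B had 6.20, 7.44 and 7.40 FPKM in 17ab, against 5.07, 3.46 and 4.41 FPKM in WT. Every 17ab library lay above every WT library, and the lowest 17ab library, replicate 1, stood nearest to the highest WT library, replicate 1. GID1B averaged 7.01 ± 0.705 FPKM in 17ab and 4.31 ± 0.809 FPKM in WT (SD, n = 3 each). Its log2 fold change was 0.67 ± 0.18 (SE), a 1.59-fold rise with a 95% interval of 1.23 to 2.07 and an edgeR adjusted p of 0.02125. The call was lost when any 1 of 4 libraries was left out: the edgeR adjusted p was 0.06439 without 17ab replicate 2, 0.066 without 17ab replicate 3, 0.0918 without WT replicate 2 and 0.06225 without WT replicate 3. The adjusted p was 0.06868 with DESeq2. Over the 18 alternatives the log2 fold change stayed between 0.52 and 0.82, and 11 of them kept GID1B past the threshold.

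GID1A, the most abundant receptor transcript, had 21.17, 18.51 and 19.18 FPKM in 17ab, against 20.27, 23.40 and 19.59 FPKM in WT. The groups overlapped, and the difference of -0.13 ± 0.10 on the log2 scale (edgeR adjusted p = 0.4155) had a 95% interval from -0.34 to 0.07. GID1C, closest to GID1A in sequence, had 13.49, 13.99 and 11.04 FPKM in 17ab, against 10.96, 10.19 and 11.03 FPKM in WT. Its groups did not overlap, but 17ab replicate 3 and WT replicate 3 were almost equal, and a log2 fold change of 0.23 ± 0.12 came with an edgeR adjusted p of 0.2526.

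**Figure D2:**
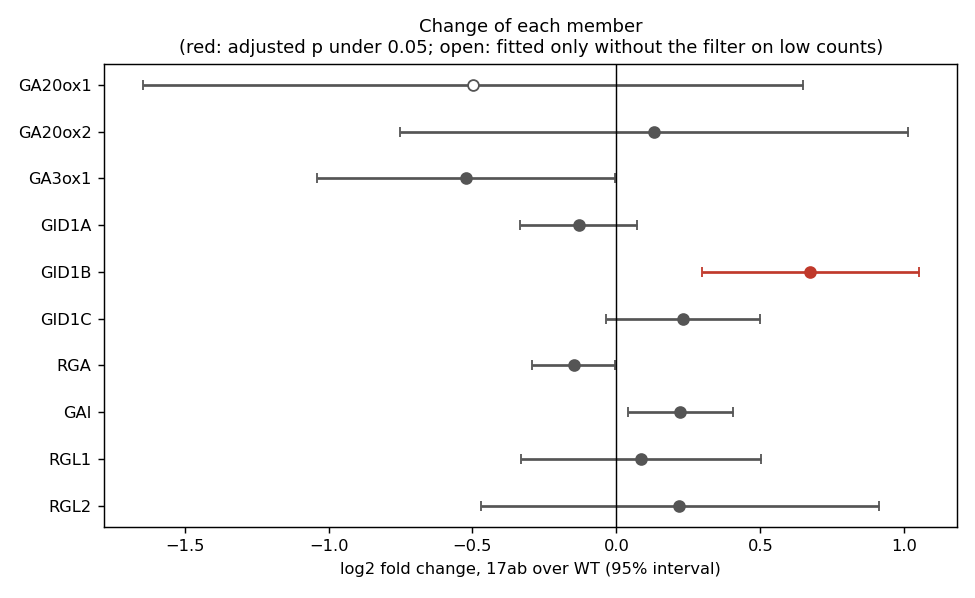
Log2 fold change of each member, 17ab over WT (horizontal axis), with its 95% interval from the edgeR fit, and members in rows. Only the interval of GID1B, in red, belongs to a gene past the adjusted threshold, and the open point of GA20ox1 comes from the fit without the filter on low counts.

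The receptor transcripts were also compared as shares of their own sum, which does not depend on the scaling between libraries. GID1A took 51.8%, 46.3% and 51.0% of the summed GID1 FPKM in the 17ab libraries, against 55.8%, 63.2% and 55.9% in the WT libraries. The mean share was 49.7 ± 2.95% in 17ab and 58.3 ± 4.20% in WT (SD, n = 3 each), a difference of -8.59 percentage points with groups that did not overlap. The two-sided exact permutation p was 0.1, the smallest that 3 against 3 libraries can give, and 0.16 adjusted over 8 shares. GID1B took 15.2%, 18.6% and 19.7% of the sum in 17ab, against 14.0%, 9.34% and 12.6% in WT. The share of GID1C overlapped between the genotypes, at 29.3% to 35.0% in 17ab and 27.5% to 31.5% in WT. The FPKM ratio of GID1B to GID1A was 0.293, 0.402 and 0.386 in 17ab, against 0.250, 0.148 and 0.225 in WT, so that GID1A remained the more abundant of the pair in every library. The summed receptor level was 39.5 ± 1.67 FPKM in 17ab and 36.1 ± 1.02 FPKM in WT.

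No DELLA gene passed the edgeR test, over the 4 members and RGL3, the remaining gene of the family, with 2 higher and 1 lower at an unadjusted p under 0.05 and none at that level by DESeq2. RGA, a main repressor of stem growth, had 46.60, 46.63 and 47.54 FPKM in 17ab, against 50.37, 53.11 and 49.78 FPKM in WT. The 17ab libraries were tightly grouped and all below WT. The log2 fold change was -0.15 ± 0.07, a 0.902-fold level with a 95% interval of 0.816 to 0.996, and the edgeR adjusted p was 0.1624. GAI, its closest paralog and partner in repressing growth, had 27.26, 24.91 and 27.18 FPKM in 17ab, against 23.01, 23.58 and 20.11 FPKM in WT. All 17ab libraries stood above all WT libraries, and GAI was higher by 0.22 ± 0.09 on the log2 scale, short of the threshold (edgeR adjusted p = 0.1007). In the 18 alternatives RGA stayed between -0.21 and -0.12 and GAI between 0.15 and 0.26 on the log2 scale, and neither passed the threshold in any of them, at adjusted p-values from 0.05472 to 0.4049 for RGA and from 0.0891 to 0.3509 for GAI.

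The less abundant DELLA genes were less precise. RGL1, known from roles in flowers and seeds, had 5.69, 5.46 and 4.73 FPKM in 17ab, against 6.20, 4.70 and 3.76 FPKM in WT, with overlapping groups and a difference of 0.09 ± 0.19 on the log2 scale (edgeR adjusted p = 0.83). RGL2, the main DELLA repressor of seed germination, had 2.25, 2.38 and 1.03 FPKM in 17ab, against 1.81, 1.66 and 1.29 FPKM in WT. Its 17ab libraries spanned the whole WT range, and its difference of 0.22 ± 0.32 on the log2 scale (edgeR adjusted p = 0.7193) has a 95% interval from -0.47 to 0.91. RGL3, linked to jasmonate responses, had 2.59, 3.14 and 2.88 FPKM in 17ab, against 1.21, 2.41 and 2.13 FPKM in WT. Those groups did not overlap, and the difference of 0.55 ± 0.26 on the log2 scale was short of the threshold (edgeR adjusted p = 0.1789).

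The summed DELLA level overlapped between the genotypes, at 83.4 ± 0.937 FPKM in 17ab and 81.7 ± 4.27 FPKM in WT (SD, n = 3 each). Within it the shares of RGA, GAI and RGL3 did not overlap between the genotypes. RGA took 55.2%, 56.5% and 57.0% of the DELLA sum in 17ab, against 61.0%, 62.1% and 64.6% in WT. The mean share was 56.3 ± 0.932% in 17ab and 62.6 ± 1.84% in WT, a difference of -6.32 percentage points, with no overlap between the groups. The two-sided exact permutation p was again 0.1, the smallest possible, and 0.16 adjusted over the 8 shares. GAI took 32.3%, 30.2% and 32.6% in 17ab, against 27.9%, 27.6% and 26.1% in WT, also without overlap. The share of RGL3 was 3.07%, 3.81% and 3.45% in 17ab, against 1.46%, 2.82% and 2.76% in WT. Within a library the FPKM ratio of GAI to RGA was 0.585, 0.534 and 0.572 in 17ab, against 0.457, 0.444 and 0.404 in WT. Leaving out any 1 library kept the difference in the RGA share between -7.12 and -5.31 points, and that in the GID1A share between -9.83 and -6.17 points.

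**Figure D3:**
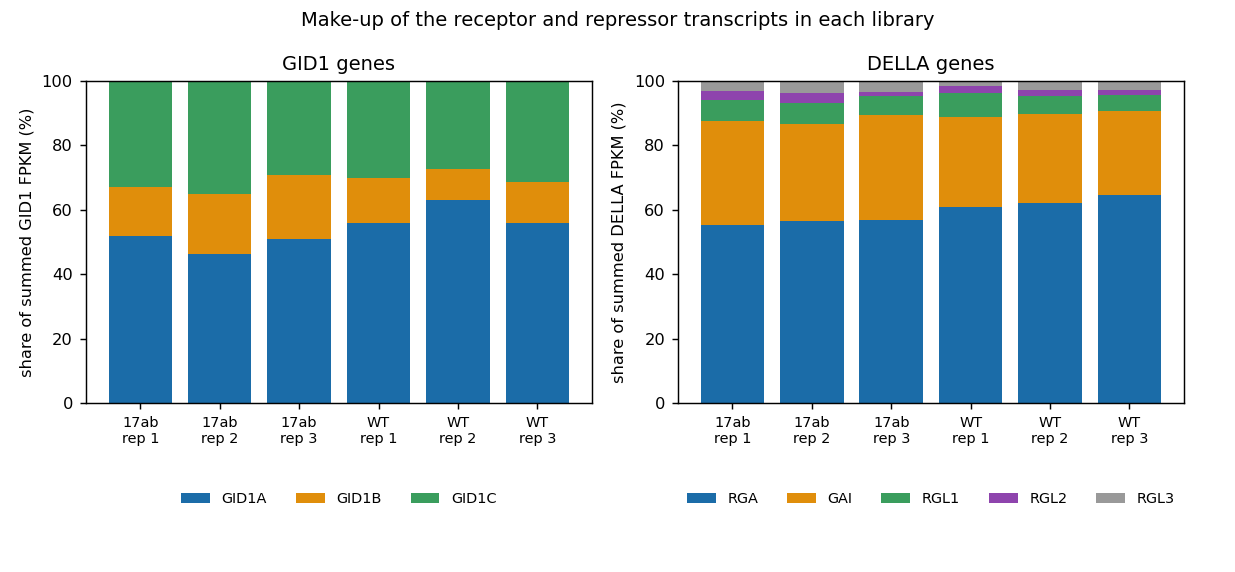
Share of each gene in the summed FPKM of the GID1 genes (left panel) and of the DELLA genes (right panel), in percent, for each of the 3 libraries of 17ab and then of WT. The RGA share is 55.2% to 57.0% in 17ab and 61.0% to 64.6% in WT, and the GID1A share is 46.3% to 51.8% in 17ab and 55.8% to 63.2% in WT.

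The rest of the pathway was covered by 50 other genes in 4 lists, of which 30 could be tested, 3 rose and 2 fell (edgeR adjusted p under 0.05), against 14.1% of all genes tested. Their median log2 fold change was 0.09. In the list of other synthesis genes none of 4 tested by edgeR passed, with 1 higher and 1 lower at an unadjusted p under 0.05 and none by DESeq2, and the log2 fold changes ran from -0.28 to 0.26. These are the ent-kaurene synthase gene KS, the ent-kaurene oxidase gene KO, and KAO1 and KAO2, which act on kaurenoic acid. KO had 17.13, 20.47 and 17.20 FPKM in 17ab, against 13.64, 16.04 and 15.27 FPKM in WT, groups that did not overlap (edgeR adjusted p = 0.128). CPS, which makes the first committed precursor, was too low to test, at 0.12 to 0.24 FPKM in 17ab and 0.25 to 0.54 FPKM in WT. GA20ox4, GA20ox5, GA3ox3 and GA3ox4 had no count in any library, where the limit that a count of 0 allows is 3 counts, or 0.477 to 0.503 CPM (counts scaled to a common library total).

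Inactivation genes gave little to compare. Of 11 listed, 2 could be tested by edgeR and neither passed, with 0 at an unadjusted p under 0.05 by edgeR or DESeq2. GA2ox2 had 2.54, 2.53 and 3.07 FPKM in 17ab, against 1.52, 2.31 and 3.41 FPKM in WT. GA2ox6 had 2.70, 2.48 and 2.04 FPKM in 17ab, against 2.07, 1.6 and 2.37 FPKM in WT. Both encode 2-oxidases that remove active hormone, and the groups of both overlapped. GA2ox3 and GA2ox7 had no count in any library.

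In the signalling list 3 of 15 tested genes rose and none fell, against 7.57% risen and 6.51% fallen over all genes tested. At an unadjusted p under 0.05, 6 were higher and 1 lower by edgeR, and 5 higher and 1 lower by DESeq2. By adjusted p DESeq2 called 4 risen and none fallen. PIF4, a bHLH factor of elongation growth that DELLA proteins bind, had 26.27, 26.29 and 37.41 FPKM in 17ab, against 18.88, 21.59 and 18.41 FPKM in WT. Every 17ab library lay above WT, with replicate 3 well above the other two, and PIF4 rose by 0.57 ± 0.13 on the log2 scale (edgeR adjusted p = 0.01182). PIF3, a related phytochrome-interacting factor, had 20.34, 22.49 and 24.07 FPKM in 17ab, against 16.66, 17.37 and 15.30 FPKM in WT, and rose by 0.41 ± 0.10 on the log2 scale (edgeR adjusted p = 0.01285). NPF3.1, a plasma membrane transporter of nitrate and gibberellin, had 21.98, 23.06 and 20.11 FPKM in 17ab, against 16.32, 14.80 and 15.46 FPKM in WT. It rose by 0.43 ± 0.10 on the log2 scale (edgeR adjusted p = 0.01101). Among the fits without 1 library, the call of PIF4 was lost without WT replicate 3, that of PIF3 without 17ab replicate 3 or WT replicate 3, and that of NPF3.1 without WT replicate 2.

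The F-box gene SLY1, whose product carries DELLA proteins to degradation, stood at 0.002 on the log2 scale, 17ab over WT, with a 95% interval from -0.30 to 0.31 (edgeR adjusted p = 0.9966). Of the glycosyltransferase genes that modify DELLA proteins, SPY stood at -0.04 on the same scale (edgeR adjusted p = 0.8084). SEC had 30.72, 33.03 and 32.00 FPKM in 17ab, against 28.74, 25.66 and 25.15 FPKM in WT (edgeR adjusted p = 0.05563). SWEET13, a sugar transporter that also carries gibberellin, was too low for the filter, at 0.63, 2.14 and 1.77 FPKM in 17ab, against 0.26, 0 and 0 FPKM in WT. It passed the edgeR test once the filter was dropped (adjusted p = 0.006363). SLY1, SPY, SEC, KO and SWEET13, like the other genes of the lists given with values but not past the test, were picked after their values were seen.

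Among 9 tested response genes 2 fell and none rose, against 6.51% fallen and 7.57% risen over all genes tested. The list was not split by whether gibberellin raises or lowers a gene, so these counts give no direction of gibberellin response. At an unadjusted p under 0.05, 2 were higher and 3 lower by edgeR, and 0 higher and 2 lower by DESeq2. GASA6, which encodes a small cysteine-rich peptide induced by gibberellin, had 67.87, 72.43 and 71.01 FPKM in 17ab, against 90.18, 88.83 and 81.00 FPKM in WT, and fell by 0.33 ± 0.08 on the log2 scale (edgeR adjusted p = 0.0139). Its call was lost without WT replicate 1 or WT replicate 2. BHLH137, a bHLH gene known as a target of DELLA proteins in seedlings, had 4.11, 4.17 and 2.95 FPKM in 17ab, against 5.90, 5.10 and 9.51 FPKM in WT. It fell by 0.89 ± 0.24 on the log2 scale (edgeR adjusted p = 0.02601), with WT replicate 3 far above the rest. The call was lost without that library, without 17ab replicate 3, and with limma-trend in each of its 3 settings. GASA1, the most abundant gene of the list, had 484.43, 215.12 and 320.21 FPKM in 17ab, against 477.30, 508.13 and 410.15 FPKM in WT (edgeR adjusted p = 0.1114), with 17ab replicate 1 inside the WT range and the other two below it. GASA14 went the other way, with 106.66 to 170.5 FPKM among 17ab libraries and 83.62 to 123.43 among WT libraries. It stood 0.48 log2 units higher in 17ab, with overlapping groups and an adjusted p of 0.05988 by edgeR. Dropping the filter on low counts, 17ab replicate 2 or WT replicate 2 brought GASA14 past the threshold as risen. SCL3, a GRAS family gene known as a direct DELLA target, had 7.80, 8.06 and 6.96 FPKM in 17ab, against 6.06, 5.61 and 6.53 FPKM in WT (edgeR adjusted p = 0.1518).

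**Figure D4:**
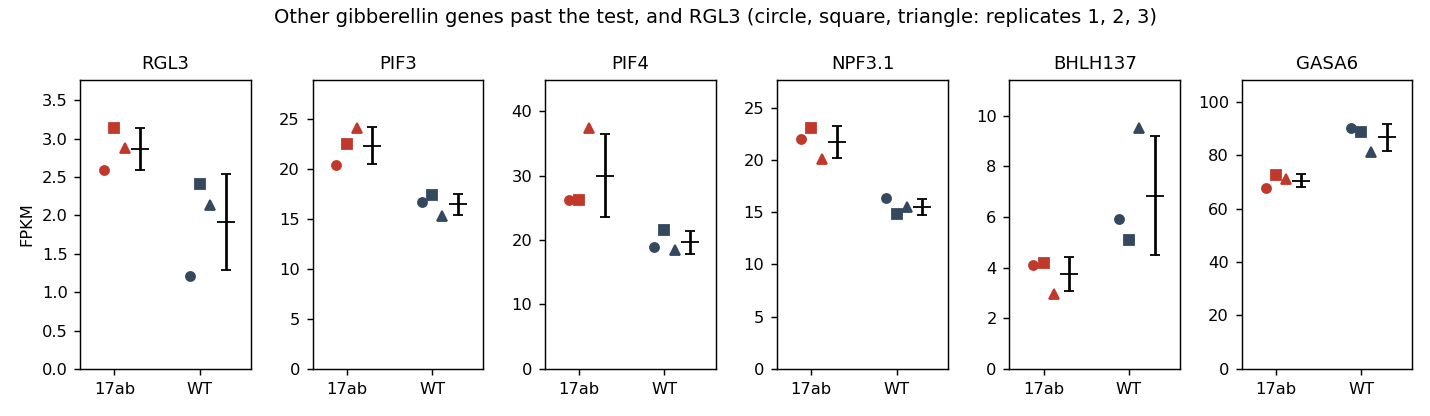
FPKM (vertical axes, each starting at 0) of RGL3 and of the 5 other gibberellin genes past the edgeR test, in the 3 libraries of 17ab (red, left) and the 3 of WT (dark, right), with the mean and SD of each group. The groups do not overlap in any of the 6 genes, against 31.1% of all genes tested without overlap. The 5 were drawn because they passed the test on these same libraries, so their lack of overlap is no separate result. BHLH137 in WT reaches 9.51 FPKM in replicate 3 alone.

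Markers of root and shoot were set beside these results, since gibberellin genes are not expressed evenly over a seedling. The 5 root markers summed to 54.6 to 60.8 FPKM in 17ab and 48.6 to 51.4 FPKM in WT, without overlap. Of these 5, 2 had risen (AKT1 and PHO1) and 1 had fallen (GL2). The higher sum came mainly from the 2 risen markers. AKT1 had 8.82 to 10.43 FPKM in 17ab and 4.82 to 5.13 FPKM in WT. PHO1 had 13.18 to 16.05 FPKM in 17ab and 7.57 to 10.88 FPKM in WT. SHR and SCR overlapped between the genotypes, with log2 fold changes of 0.07 and -0.03, and GL2 stood at -0.35. The sum therefore does not describe all 5 root markers alike. The 5 shoot markers summed to 22130 to 25080 FPKM in 17ab and 24130 to 28250 FPKM in WT, with overlap, and 1 of 5 had fallen (CA1). Over all genes tested 7.57% rose and 6.51% fell. Of these 4 marker calls that of AKT1 held in all alternatives, and those of PHO1, GL2 and CA1 were each lost in some. None of the 10 markers was at 0 in any library. Their part in the rise of GID1B and in the changes of the other genes was not tested.

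The genes whose profile over the 6 libraries was most like that of 1 member of each role were sought among those of at least 5 FPKM on average, by the root mean square difference of centred log2(FPKM + 0.1). For GID1B, the nearest of 13693 genes were WRKY25, a WRKY transcription factor gene, at 0.0929, the cutinase gene CDEF1 at 0.0931 and AT4G18203 at 0.114 log2 units. GAI, the tested DELLA member with the largest absolute change, was nearest to RCD1, a stress regulator gene, at 0.0299, to NAGS2 at 0.0341 and to AT4G18070 at 0.036. For GA3ox1 the nearest were AT5G22280 at 0.0473, AT4G38495 at 0.0897 and AT2G24395 at 0.0906. All these distances share the same libraries, and a low distance here is a description of 6 points.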

How the data were processed

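The authors deposited 1 table per library with an expected count and FPKM beside the length of each gene, per the file headers. Unlisted genes were set to 0. How those expected counts were estimated is a step not given in the sources used here. Tools named by the submitters' processing notes are HTSeq 0.6.0, STAR 2.4.0 and DESeq2, with the build TAIR10 and no roles. FPKM values were used as the authors deposited them. For the members they lie close to count over listed length and library total, though not by 1 constant for all genes. The listed length varies between libraries for genes with several transcripts. Expected counts were rounded and tested for 17ab over WT with edgeR 4.0.16 (quasi-likelihood, TMM, default expression filter, Benjamini-Hochberg over all genes tested, threshold 0.05) in R 4.3.3. Standard errors are the absolute log2 fold change over the square root of F. Alternatives used DESeq2 1.42.0, limma 3.58.1, other filters and scalings, a replicate block and each library left out. Shares were compared by exact permutation over samples. Count-ratio intervals and the limit at 0 counts cover counting error only. Names and coding DNA came from TAIR10.1 by gene ID (99.2% matched), and no coordinates are given because that build differs from the authors'. Named by rule were the members, RGL3, list genes past the test, 3 sensors, marker lists and the nearest profiles. Other list genes were named after their values were seen. The members and lists were chosen with earlier results of these data known.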

Additional observations from a re-analysis of the deposited data

How the results depend on the processing

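Without 1 library the number of genes called ran from 1571 (without WT replicate 2) and 1581 (without WT replicate 3) to 2090, against 2515 with all 6. The number of risen members ran from 0 (without 17ab replicate 2 or 3, or WT replicate 2 or 3) to 1. Risen other gibberellin genes ran from 2 to 5 (5 without 17ab replicate 1 or WT replicate 1), fallen ones from 1 (without any 1 WT library) to 3, and no member fell in any setting. The differences in the RGA and GID1A shares moved by less than the larger of the SDs of the genotypes (1.84 points for RGA and 4.2 for GID1A), though without WT replicate 3 that of RGA moved to -5.31 from -6.32, by more than the 17ab SD of 0.932. With DESeq2 1604 genes were called and 0 members rose, while limma-trend on log2(FPKM + 1) with no filter called 1616 genes and 0 members. With the GC and length offset and the replicate block, 0 members rose and the call of PIF3 was lost. Without the filter on low counts 5 other gibberellin genes rose in place of 3. Fallen ones numbered 1, with the call of BHLH137 lost, with the replicate block and with limma-trend on log2(FPKM + 1), on log2(FPKM + 0.1) and without a filter. Leaving out 1 library moved GA20ox2 between -0.18 (without 17ab replicate 3; -0.03 without WT replicate 2) and 0.43, and RGL1 between -0.08 (without WT replicate 3) and 0.31, and neither passed the threshold. The cause of these changes was not tested, except that fits without 1 library hold fewer samples. Replicate numbers share no stated origin, and the deviations of same-numbered libraries correlated at -0.002, -0.108 and -0.0455. With so few libraries these values cannot show whether same-numbered libraries shared a plate, harvest or batch. With the replicate block 1853 genes were called and GID1B had an adjusted p of 0.04764. No 17ab library correlated best with the WT library of its own number. Library totals of 5968854 to 6292461 counts limit what can be said of GA20ox1, GA20ox2, RGL2 and the 2-oxidase genes.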
